A study of Bos taurus with 11 samples.

Results

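The genes described here encode parts of the signal recognition particle (SRP) and of the translocon that receives its cargo at the endoplasmic reticulum (ER). They are SRP9, SRP14, SRP19, SRP54, SRP68 and SRP72 of the particle, SEC61B and SEC61G of the SEC61 channel, and SSR1 and SSR3 of the translocon-associated protein (TRAP) complex. The rule was to take every row whose RefSeq accession maps to one of these 10 symbols. All 10 are listed in both deposited tables, among 8576 transcripts in the table of GATA3 KO and 12047 in that of CDX2 KO. The set was chosen by their values in GATA3 KO against WT control embryos, where SRP9 stands among the largest differences. The differences in that contrast are therefore given as a description, with no test.

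RNA was sequenced from single bovine early blastocysts at day 7, produced in vitro, with 3 embryos in WT control, 4 in GATA3 KO and 4 in CDX2 KO. All embryos, the WT control included, had received mRNA of the cytosine base editor BE3 as zygotes, and the KO embryos had in addition received a mix of guide RNAs to GATA3 or to CDX2. The edit places a premature stop codon, so the transcript of the targeted gene need not be lost, and an injected embryo can be a mosaic of edited and unedited cells. Each embryo gave one Smart-seq2 library of polyadenylated RNA. The same WT control embryos stand in both tables, which were normalized separately, so KO and WT control embryos were compared within one table only. Embryo numbers are those of the columns, 3 to 6 in GATA3 KO and 2 to 5 in CDX2 KO.

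The SRP is an RNA and protein particle that binds the signal sequence of a secretory or membrane protein as it leaves the ribosome, and brings the ribosome to the ER membrane. SRP9 and SRP14 form the pair at the Alu domain of the SRP RNA, which slows elongation. SRP19, SRP54, SRP68 and SRP72 sit on the S domain, and SRP54 binds the signal sequence and GTP. At the membrane the nascent chain passes into the SEC61 channel, to which the TRAP complex is attached. The outer cells of the blastocyst, the trophectoderm, are a polarized epithelium that secretes and that builds its membrane through this route.

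The depth of the libraries sets what can be seen. A normalized count is a read count divided by the size factor of its library, and the reads behind the values could be recovered. Libraries held 150057 to 540775 counts in the GATA3 KO table and 100731 to 662962 in the CDX2 KO table, where CDX2 KO embryos 3 and 2 had the lowest totals, 100731 and 218797. A floor of 3 counts corresponds to 1.29 to 4.66 normalized counts in the first table and 1.61 to 6.99 in the second, for counting error only, since reads without molecular identifiers are not independent molecules. The CDX2 KO embryos 2 and 3 also stood apart in their profile, with a mean Pearson r to the other embryos of 0.689 and 0.473 over 5719 transcripts, against 0.739 to 0.767 for the others. Log2 fold changes of the set in CDX2 KO are therefore given with and without these embryos. Most other single genes are given with all embryos only.

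The targeted genes were examined first. The level of GATA3 was 87.6, 71.3 and 80.8 normalized counts in WT control, and 13.0, 12.9, 13.1 and 9.85 in GATA3 KO. All KO embryos lay below all WT control embryos, and the log2 fold change was -2.62 (SE 0.27, limma, adjusted p = 7.64e-05). For CDX2 the values were 8.88, 11.1 and 6.88 in WT control and 3.68, 4.66, 1.66 and 4.30 in CDX2 KO. The CDX2 values rest on 6 to 14 counts in WT control and 2 to 8 in CDX2 KO embryos, too few for the test, which took transcripts with a mean of at least 10 normalized counts.

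In GATA3 KO embryos, all 10 genes had a higher mean level than in WT control embryos, on the log2 scale by 0.17 for SEC61B, which turned negative under quantile normalization, to 2.02 for SRP9. In the SRP9 and SRP14 pair, SRP54 and SRP19 every KO embryo lay above every WT control embryo, as it did in 11.9% of all transcripts, and the genes were chosen on this contrast. The other 2 SRP proteins, SRP68 and SRP72, and both SEC61 subunits differed by less than the spread between embryos, and the TRAP subunits lay between. The median log2 fold change of the 10 genes was 0.58, where that of all 4271 transcripts tested was 0.11, and 57.2% of all transcripts were positive. In whole embryos, fewer cells of a type and less RNA per cell cannot be told apart.

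SRP9 had 5.52, 5.40 and 6.22 normalized counts in WT control (embryos 1 to 3, in this order throughout), against 33.3, 22.8, 17.9 and 34.5 in GATA3 KO (embryos 3 to 6). The WT control values rest on 7, 5 and 4 counts, for which the exact Poisson 95% intervals run from 1.09 to 14.4 counts, and the KO values on 23, 53, 15 and 42. The groups did not overlap, but the counting interval of WT control embryo 3, the highest of its group, reaches 15.9 normalized counts and overlaps with that of the lowest KO embryo, embryo 5. The means were 5.71 ± 0.44 (SD, n = 3) and 27.1 ± 8.09 (SD, n = 4), a log2 fold change of 2.02 (SE 0.36), which was number 6 of 4271 counted from the most positive value. The floor of low counts bears on this value, since SRP9 passed the filter on the mean through the KO group alone.

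SRP14, the partner of SRP9 at the Alu domain, was 26.8, 10.8 and 31.1 normalized counts in WT control and 53.5, 50.0, 45.3 and 56.7 in GATA3 KO. All KO embryos lay above WT control embryo 3, the highest of its group, while WT control embryo 2 lay far below the others. The log2 fold change was 1.25 (SE 0.33), from 22.9 ± 10.7 (SD, n = 3) to 51.4 ± 4.90 (SD, n = 4). Embryo 6 was the highest of the table for both genes of the pair, and embryo 5 the lowest KO embryo for both.

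On the S domain, SRP54, the GTPase that holds the signal sequence, was 15.0, 6.48 and 4.66 normalized counts in WT control and 27.5, 19.4, 17.9 and 17.2 in GATA3 KO. This is a log2 fold change of 1.27 (SE 0.40), but the gap between the highest WT control embryo and the lowest KO embryo was small, and the WT control values rest on 19, 6 and 3 counts, the last of them at the floor. SRP54 too passed the filter through the KO group. SRP19, which holds the S domain RNA in shape for SRP54 to bind, was 31.6, 20.5 and 32.6 in WT control and 47.8, 37.9, 63.1 and 34.5 in GATA3 KO embryos. Its groups did not overlap either, yet KO embryo 6 was close to WT control embryo 3, and the log2 fold change was 0.67 (SE 0.29).

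SRP68 and SRP72 form a dimer on the same domain. SRP68 was 34.7, 15.1 and 26.4 normalized counts in WT control and 33.3, 26.3, 32.2 and 32.8 in GATA3 KO embryos, so that the highest value of all was that of WT control embryo 1. Its log2 fold change was 0.35 (SE 0.31). SRP72 was 27.6, 37.8 and 24.9 in WT control and 28.9, 27.6, 48.8 and 38.6 in GATA3 KO, with a log2 fold change of 0.23 (SE 0.29). In both genes the groups overlapped and the difference was close to its standard error.

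**Figure D1:**
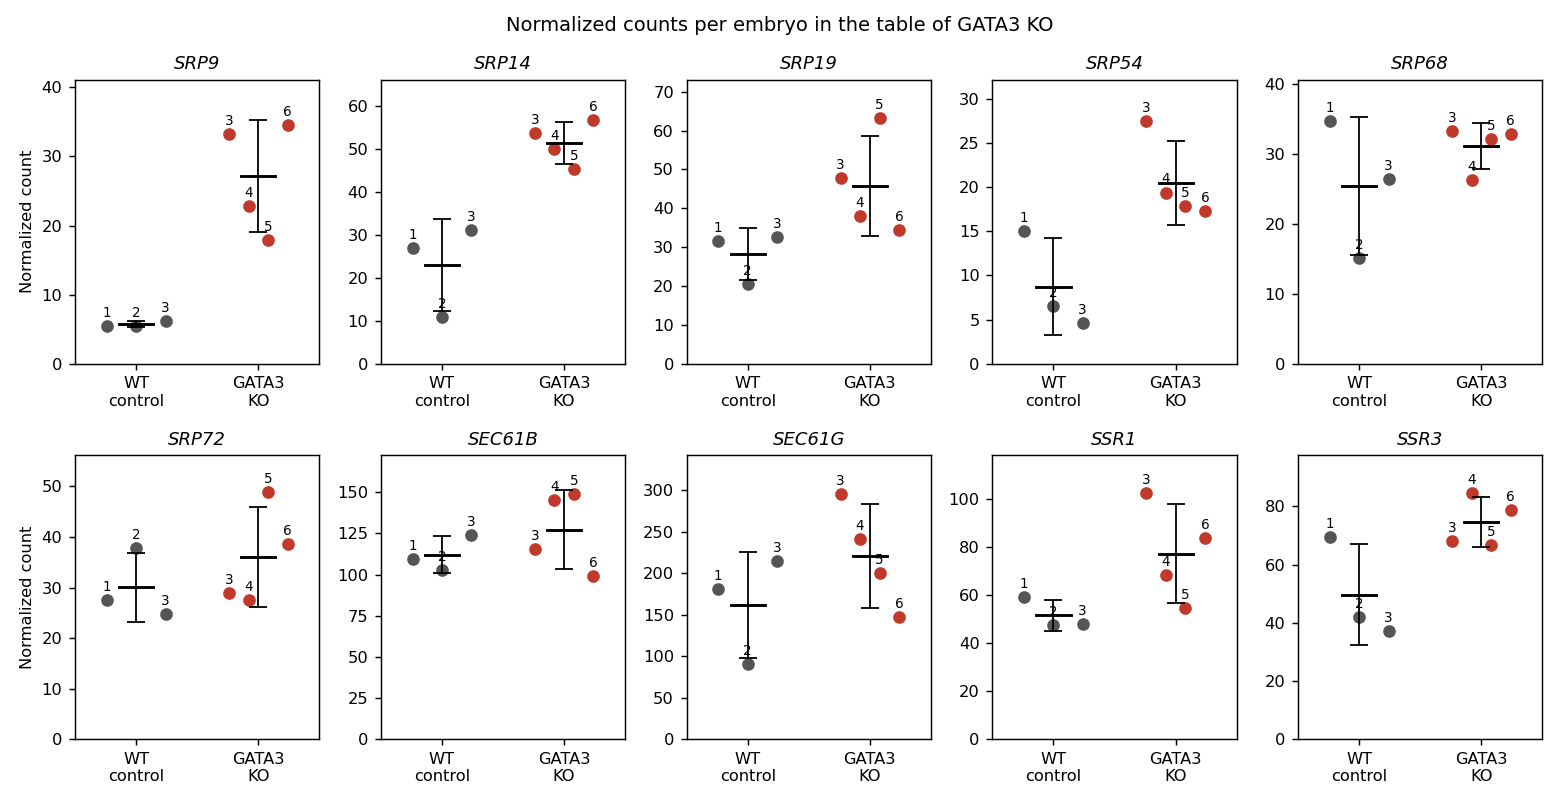
Normalized counts (vertical axes, from 0) of the 10 genes in each embryo of the table of GATA3 KO. Points are embryos with their numbers, grey for WT control and red for GATA3 KO, and black lines are the mean ± SD (n = 3 and n = 4). SRP9, SRP14, SRP19 and SRP54 show no overlap between the groups, and SRP9 lies at 5.40 to 6.22 against 17.9 to 34.5.

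The 2 small subunits of the SEC61 channel overlapped between the groups. SEC61B was 109.7, 102.7 and 124.3 normalized counts in WT control and 115.8, 145.6, 148.9 and 99.3 in GATA3 KO, with a log2 fold change of 0.17 (SE 0.24). SEC61G was 180.7, 90.8 and 214.5 in WT control and 295.2, 241.3, 200.1 and 147.8 in GATA3 KO, with a log2 fold change of 0.49 (SE 0.30). KO embryo 6, which was highest for SRP9 and SRP14, was the lowest KO embryo for both SEC61 subunits.

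The TRAP subunits SSR1 and SSR3 had higher means in GATA3 KO, with overlap between the groups. SSR1 was 59.2, 47.6 and 48.2 normalized counts in WT control and 102.8, 68.5, 54.8 and 83.7 in GATA3 KO embryos, and all KO embryos but embryo 5 lay above WT control. SSR3 was 69.4, 42.1 and 37.3 in WT control and 68.0, 84.4, 66.7 and 78.8 in GATA3 KO embryos, and WT control embryo 1 lay among the KO embryos. The log2 fold changes were 0.54 (SE 0.27) and 0.62 (SE 0.27). In the RefSeq gene table, SSR3 overlaps KCNAB1, and the library kit does not mark strand, so reads of the overlap cannot be told apart. KCNAB1 had 0 to 8 counts per embryo in the table of CDX2 KO.

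Set against all transcripts, 1 of the 10 genes, SRP9, lay past the threshold in GATA3 KO (adjusted p no higher than 0.05, with a fold change of 1.5 or more or of 0.6 or less), which 86 of 4271 transcripts or 2.01% did. 4 of the 10 genes had every KO embryo above every WT control embryo, as did 11.9% of all transcripts, and 0 had every KO embryo below, as did 7.05%. Nothing is read from these shares, and they are no test of SRP9, since the genes were chosen with this contrast known and SRP9 passed the filter through the KO group alone. Without WT control embryo 2, GATA3 KO embryo 3 or GATA3 KO embryo 4 it no longer lay past the threshold. Its log2 fold change was 1.89 to 2.20 with any one embryo left out. Over the rescalings and count models tried, all 10 genes stayed positive except under quantile normalization, where 9 of 10 did and the median was 0.43.

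The low WT control values were not evenly spread over the embryos. WT control embryo 2 was the lowest of all 7 embryos for 6 of the 10 genes, and the lowest of the WT control embryos for 7, where over all transcripts tested these shares were 25.0% and 41.0%. WT control embryo 3 was the lowest of all 7 for 3 genes and for 18.3% of all transcripts. Without WT control embryo 2 the median log2 fold change of the 10 genes was 0.48, and without any other single embryo it was between 0.52 and 0.70. Single genes moved more, and without WT control embryo 2 SRP14 went from 1.25 to 0.80, SEC61G from 0.49 to 0.12 and SRP68 from 0.35 to 0.03 on the log2 scale, while SRP72 went from 0.23 to 0.41. SRP68 was at 0.61 without WT control embryo 1, SEC61G at 0.74 and SRP72 at 0.11 without WT control embryo 3, and SRP72 at 0.08 without GATA3 KO embryo 5. SEC61B, at 0.17, was at 0.09 to 0.10 without WT control embryo 2 or GATA3 KO embryo 4 or 5, and at 0.28 without KO embryo 6. All 10 genes were positive in each of these 7 fits.

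Other properties moved with the groups, and their part in the values above was not tested. Y-linked transcripts had 50, 98 and 29 counts in WT control embryos 1 to 3, against 0, 0, 2 and 68 in GATA3 KO (embryos 3 to 6). GATA3 KO embryo 6, which like the WT control embryos had Y-linked counts, held the highest SRP9 and SRP14 values of the table. It was the lowest KO embryo for SRP19, SRP54, SEC61B and SEC61G, above all WT control embryos for SRP19 and SRP54 and below all of them for SEC61B. With Y-linked counts (at least 3 or fewer) as a covariate, the KO effect rests on embryo 6 alone, the only KO embryo with that many. The fit then compares this embryo with WT control and cannot adjust for Y-linked counts. In it SRP9 had a log2 fold change of 2.40, SRP19 was at 0.31, and SEC61B and SEC61G were at -0.17 and -0.04. There 8 of 10 genes were positive. Markers of cumulus cells, the somatic cells that surround the oocyte, summed to 26.4 to 33.9 normalized counts in WT control and 8.68 to 14.8 in GATA3 KO embryos. Of that list 4 of 10 genes were listed, and PTX3, TNFAIP6 and HAS2 were not among them.

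The summed levels of the lineage lists, carried by a few abundant genes, overlapped between the groups, but some single markers did not. Trophectoderm markers, 11 of 12 of them listed and KRT8 and KRT18 the most abundant, summed to 3678 to 8970 in WT control and 4331 to 6048 in GATA3 KO embryos. Inner cell mass markers, 6 of 8 listed, summed to 170 to 216 and 91.2 to 218, and primitive endoderm markers, 7 of 9 listed, to 853 to 999.7 and 563 to 1286. Oocyte markers, 2 of 8 listed, summed to 5.52 to 15.5 and 1.29 to 8.21. Of the lineage markers, GATA2 fell (log2 fold change -1.16, SE 0.27, limma, adjusted p = 0.0344), as did APOA1 of the primitive endoderm list (-1.55, SE 0.35, limma, adjusted p = 0.0295), and TFAP2C of the trophectoderm list rose (1.03, SE 0.25, limma, adjusted p = 0.0442). In these 3 genes the groups did not overlap. All 3 calls were lost without WT control embryo 2, GATA3 KO embryo 3 or GATA3 KO embryo 4. That of GATA2 was also lost without WT control embryo 3, that of APOA1 without GATA3 KO embryo 5, and that of TFAP2C without either of these and with quantile normalization or edgeR. With the Y-linked covariate, that is in GATA3 KO embryo 6 alone, the log2 fold changes were -0.99 for GATA2, -2.27 for APOA1 and 1.06 for TFAP2C. ELF3, SALL4 and COL4A1 also lay lower in every GATA3 KO embryo than in any WT control embryo, as did CDX2, which was too low for the test. Over all transcripts tested, 7.05% lay lower and 11.9% higher in every KO embryo. These markers, named after their values were seen, moved with the groups, and their part in the values of the set was not tested.

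Summing the genes of one part within each library gives a share that does not depend on the size factors. The Alu domain pair took 128, 72.2 and 159.9 CPM (the count of the pair scaled by the library total) in WT control, against 360.3, 313, 258 and 366 CPM in GATA3 KO. The 4 S domain genes took 389 ± 38.6 CPM (SD, n = 3) in WT control and 551 ± 84.1 CPM (SD, n = 4) in GATA3 KO embryos. The embryos did not overlap, though SRP68 and SRP72 did singly. The counting intervals overlapped, up to 510 CPM in WT control embryo 1 and from 421 CPM in KO embryo 4. The SEC61 subunits took 1155 ± 296 and 1446 ± 326 CPM and overlapped, and the TRAP subunits took 425 ± 75.0 and 628 ± 91.9 CPM, with KO embryo 5 below WT control embryo 1. All 10 genes together took 2090 ± 354 CPM in WT control and 2949 ± 361 CPM in GATA3 KO embryos, 2506 CPM in the lowest KO embryo against 2359 in the highest WT control embryo. Nothing is read from these gaps, since the genes were chosen on this contrast and no share over all transcripts is given for such sums.

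**Figure D2:**
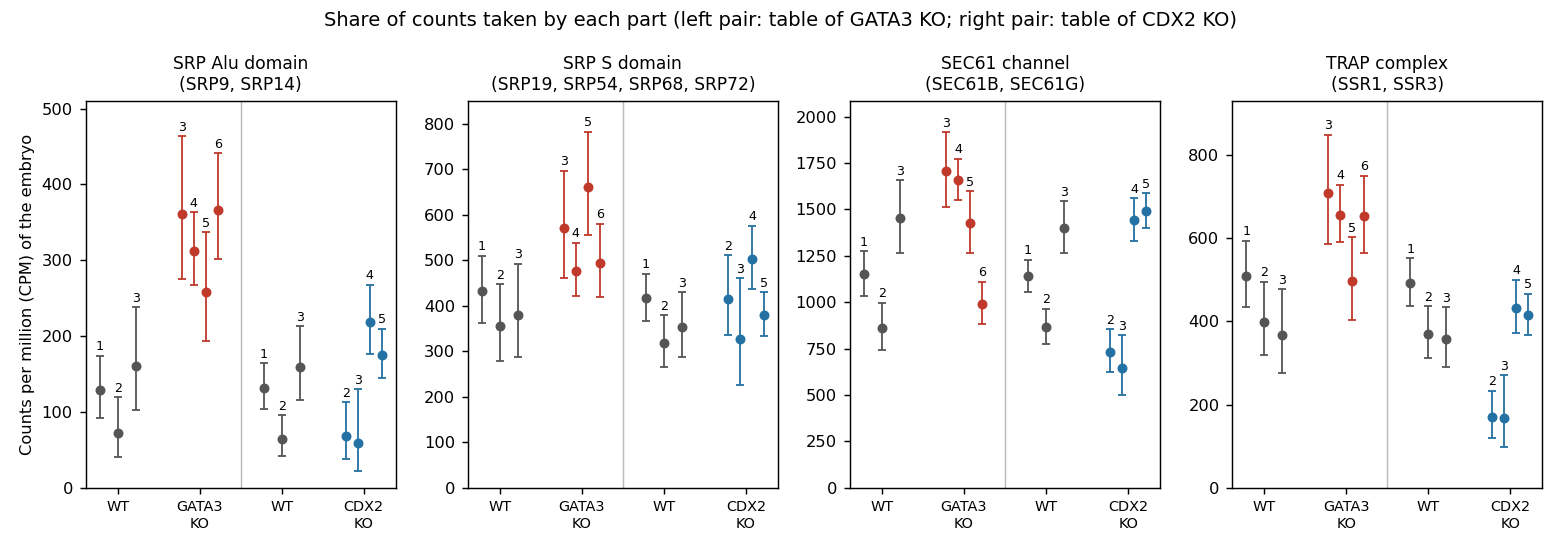
Share of each library's counts, in CPM (vertical axes, from 0), taken by the genes of each part. Points are embryos with their numbers and bars are exact Poisson 95% intervals for counting error, with the table of GATA3 KO to the left of each grey line and that of CDX2 KO to the right. The Alu domain pair lies at 72.2 to 160 CPM in WT control and 258 to 366 CPM in GATA3 KO embryos, and CDX2 KO embryos 2 and 3 lie low for the Alu domain, SEC61 and TRAP genes.

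In CDX2 KO embryos the picture was one of scatter within the group. Of the 10 genes, 9 were tested, 1 of them (SRP54) had a positive and 8 a negative log2 fold change, and 0 passed the threshold, as did 0.0% of 5719 transcripts (limma, with 187 transcripts and 0 of the 9 genes at an unadjusted p under 0.05). With edgeR 1 transcript and with DESeq2 10 transcripts passed, and none of the 9 genes was among them. None of the 10 genes had every KO embryo above every WT control embryo, as 2.52% of all transcripts had, or below, as 3.36% had. The median log2 fold change of the 9 genes was -0.35, where that of all transcripts was -0.15. With other scalings 3 (quantile) and 2 (median ratios) of the 9 genes were positive, with medians of -0.14 and -0.22. With the count models, which change the model as well as the scaling, 3 were positive, with medians of -0.05 (edgeR) and -0.03 (DESeq2).

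SRP9 had 8.25, 6.32 and 5.73 normalized counts in WT control, and 9.80, 4.66, 14.1 and 8.59 in CDX2 KO (embryos 2 to 5). These rest on 13, 8 and 5 counts and on 8, 2, 17 and 16 counts, and with a mean of 8.21 SRP9 did not enter the test in this table. SRP14 was 41.9, 13.4 and 45.9 in WT control and 8.58, 9.32, 62.2 and 53.7 in CDX2 KO embryos. KO embryos 2 and 3 thus lay below and embryos 4 and 5 above all WT control embryos, and the log2 fold change of -0.35 (SE 0.71) describes neither pair.

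The S domain genes were scattered in other ways. SRP19 was 48.8, 25.3 and 44.7 normalized counts in WT control and 31.9, 4.66, 73.0 and 49.4 in CDX2 KO embryos, a log2 fold change of -0.44 (SE 0.71) in which embryo 3 has only 2 counts. SRP54 was 18.4, 4.74 and 6.88 in WT control and 4.90, 32.6, 24.9 and 14.5 in CDX2 KO embryos, with a log2 fold change of 0.81 (SE 0.67). Here embryo 3 was the highest of the table and embryo 2 among the lowest. SRP68, at 17.4 to 49.5 in WT control and 21.0 to 33.3 in CDX2 KO, differed by -0.06 on the log2 scale (SE 0.43). SRP72, at 32.1 to 49.8 and 18.6 to 46.4, differed by -0.22 (SE 0.43).

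At the channel, SEC61G was 270.2, 121.6 and 285.4 normalized counts in WT control and 87.0, 67.6, 356.6 and 335.0 in CDX2 KO embryos. It was split like SRP14, with embryos 2 and 3 below and embryos 4 and 5 above all WT control embryos (log2 fold change -0.37, SE 0.62). SEC61B was 164.3, 143.0 and 168.5 in WT control and 109.1, 83.9, 146.8 and 196.5 in CDX2 KO embryos (log2 fold change -0.31, SE 0.41). Embryos 2 and 3 were again the lowest of the table.

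The TRAP subunits SSR1 and SSR3 had the most negative values of the set. SSR1 was 83.7, 59.2 and 64.2 normalized counts in WT control and 31.9, 23.3, 82.1 and 47.2 in CDX2 KO embryos (log2 fold change -0.71, SE 0.46). SSR3 was 104.0, 53.7 and 51.6 in WT control and 13.5, 16.3, 68.8 and 100.4 in CDX2 KO embryos (log2 fold change -0.88, SE 0.65). For SSR3, embryos 2 and 3 had 11 and 7 counts and lay far below all others, while embryos 4 and 5 lay within the WT control range. The TRAP subunits outside the set, named after their values were seen, were at -0.47 (SE 0.44) for SSR2 and 0.74 (SE 0.40, limma, adjusted p = 0.900) for SSR4. Every CDX2 KO embryo lay above every WT control embryo for SSR4, as in 2.52% of all transcripts.

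**Figure D3:**
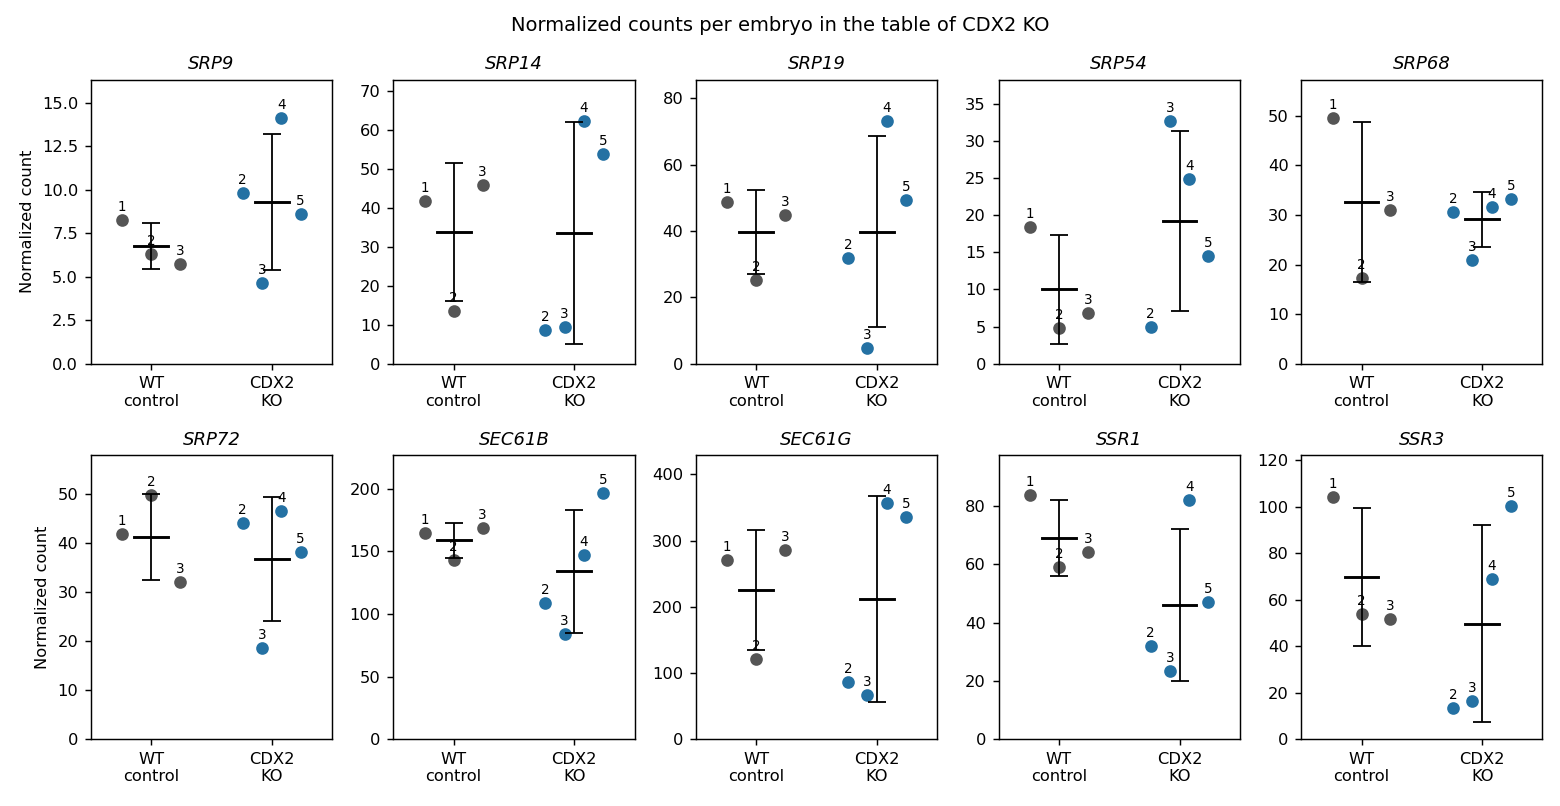
Normalized counts (vertical axes, from 0) of the 10 genes in each embryo of the table of CDX2 KO. Points are embryos with their numbers, grey for WT control and blue for CDX2 KO, and black lines are the mean ± SD (n = 3 and n = 4). For SRP14 and SEC61G, CDX2 KO embryos 2 and 3 lie below and embryos 4 and 5 above all WT control embryos.

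CDX2 KO embryo 3 was the lowest of its table for 6 of the 10 genes, where it was lowest for 37.6% of all transcripts tested. Without embryo 3 the median log2 fold change of the 9 genes was 0.06, with 6 of 9 positive. It was -0.74 and -0.71 without CDX2 KO embryos 4 and 5, -0.73 without WT control embryo 2, and between -0.26 and -0.19 without any other single embryo. Without both embryos 2 and 3, a setting chosen after the data were seen, it was 0.33, with 8 of 9 positive and 0 past the threshold, and that of all transcripts was 0.05. The sign of the set in CDX2 KO embryos thus changed with these libraries. Without both, the log2 fold change was 0.94 (SE 0.49) for SRP14, 1.07 (SE 0.61) for SRP54 and 0.64 (SE 0.41) for SRP19. SEC61G was at 0.71 (SE 0.37) and SSR3 at 0.33 (SE 0.40), while SEC61B, SRP68 and SRP72 lay between 0.05 and 0.11. SSR1 alone was negative there, at -0.13 (SE 0.37). In CPM, the 10 genes together took 1385 and 1201 in embryos 2 and 3, 2595 and 2463 in embryos 4 and 5, and 2180, 1620 and 2271 in WT control embryos 1 to 3.

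The embryos of CDX2 KO also differed in other lists, whose part in the values was not tested. Trophectoderm markers, 12 of 12 listed, summed to 5170 to 13872 normalized counts in WT control embryos and to 4103, 2426, 8508 and 7158 in CDX2 KO embryos 2 to 5. Of that list, SLC34A2, GATA2 and IFNT2 lay lower in every CDX2 KO embryo than in any WT control embryo, as did 3.36% of all transcripts, and none passed the threshold in limma with all embryos. SLC34A2, named with GATA2 and IFNT2 after the values were seen, was 840.5, 586 and 209 in WT control and 47.8, 44.3, 39.8 and 50.5 in CDX2 KO embryos (log2 fold change -3.34, SE 0.48, limma, adjusted p = 0.0505). It fell past the threshold with a pseudocount of 5, without a filter, with a mean of at least 100, with quantile normalization, median ratios, edgeR or DESeq2, and without WT control embryo 3, CDX2 KO embryo 3 or both CDX2 KO embryos 2 and 3, and its log2 fold change was -3.92 to -2.92 over all settings. GATA2 had a log2 fold change of -0.85 (SE 0.40, limma, adjusted p = 0.900), and IFNT2 was below the floor of 3 counts in most embryos and was not tested. Markers of cumulus cells, 9 of 10 listed, summed to 49.8 to 59.6 in WT control embryos and to 112.8, 62.9, 56.4 and 46.2 in CDX2 KO embryos 2 to 5, from 92, 27, 68 and 86 counts. Oocyte markers, 6 of 8 listed, summed to 15.9 to 27.5 in WT control embryos and to 34.3, 48.9, 29.9 and 18.3 in CDX2 KO embryos, from 28, 21, 36 and 34 counts. CDX2 KO embryo 2 was thus the highest of its table for the cumulus list and embryo 3 for the oocyte list. Inner cell mass markers, 6 of 8 listed, summed to 226 to 292 and 144 to 325, and primitive endoderm markers, 8 of 9 listed, to 1272 to 1370 and 878 to 1598. Y-linked transcripts had 80, 149 and 46 counts in WT control embryos 1 to 3, none in CDX2 KO embryos 2 to 4 and 155 in embryo 5. With that covariate the KO effect rests on embryo 5 alone against WT control, which cannot adjust for Y-linked counts. In this embryo 7 of 9 genes were positive and the median log2 fold change was 0.37.

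Side by side, SRP54 had log2 fold changes of 1.27 (SE 0.40) in GATA3 KO and 0.81 (SE 0.67) in CDX2 KO. It was the one tested gene with a positive value in both tables as the authors normalized them, with all embryos. The other settings given above left 1 to 8 of the 9 genes positive in CDX2 KO. The number was 1 without WT control embryo 2 or 3 or CDX2 KO embryo 4 or 5. SRP14 had 1.25 and -0.35, SSR1 had 0.54 and -0.71, and SSR3 had 0.62 and -0.88. The tables share the WT control embryos and were normalized separately, and the difference between the knockouts was not tested. Standard errors were wider in the table of CDX2 KO, from 0.41 to 0.71 over the 9 genes, than in that of GATA3 KO, from 0.24 to 0.40 over the 10 genes.

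**Figure D4:**
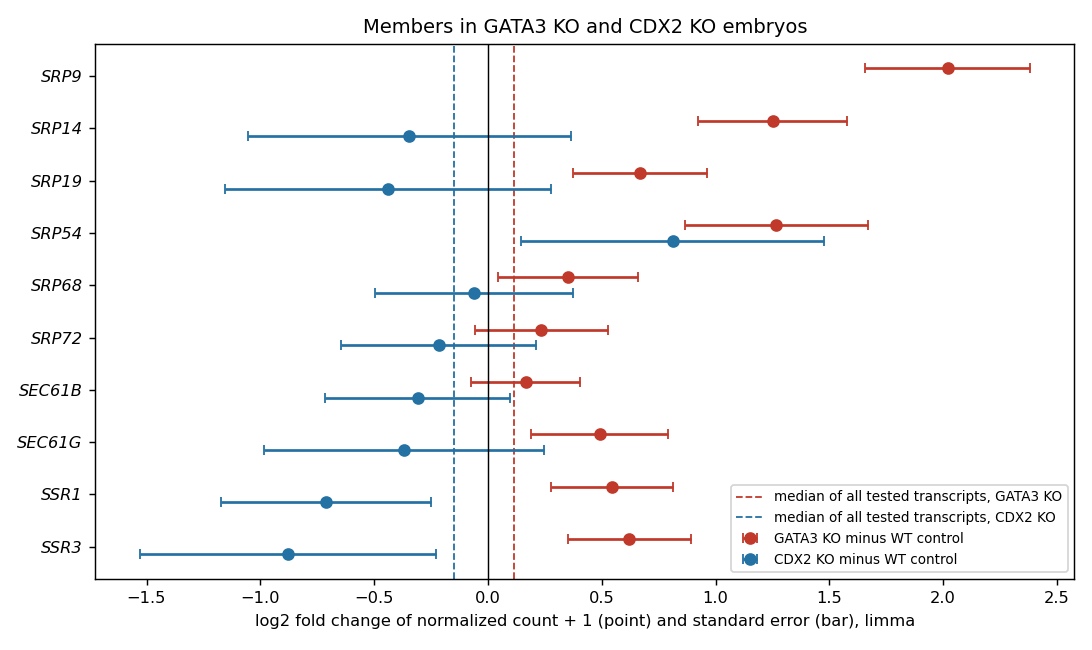
Log2 fold change (horizontal axis) of each gene in GATA3 KO (red) and CDX2 KO (blue) against WT control, with the standard error from limma as the bar. Dashed lines mark the median of all transcripts tested, at 0.11 and -0.15, and SRP9 has no value in CDX2 KO because its mean was under 10. All 10 genes lie above 0 in GATA3 KO (9 of 10 under quantile normalization), and 8 of 9 lie below 0 in CDX2 KO (6 or 7 of 9 under other scalings and count models).

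The same WT control libraries have more counts in the table of CDX2 KO than in that of GATA3 KO. The summed count was 1.83 times higher in the median over 4271 transcripts, with 90% of the transcripts between 1.65 and 1.94 times. SRP9 went from 16 to 26 counts (1.63 times) and SRP54 from 28 to 41 (1.46 times), both below that range. Both have the fewest counts of the set, and whether counting error alone gives such ratios was not tested. The other 8 genes were at 1.69 to 1.92 times. How reads that map to several places, such as processed copies of SRP genes, were counted is not given in the sources used here.

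The wider targeting and translocation machinery was read from a list of 52 other genes, of which 45 were listed and 41 tested in each table. In GATA3 KO embryos 1 of the 41 genes passed the threshold, the signal peptidase subunit gene SPCS3, beside 2.01% of all transcripts. The 41 genes were split between 21 positive and 20 negative log2 fold changes, with a median of 0.08, and between 20 and 21 under the other scalings and count models. In CDX2 KO embryos 0 of 41 passed (limma, edgeR and DESeq2 alike, with 2 at an unadjusted p under 0.05 in limma), and 3 were positive and 38 negative, with a median of -0.47, where 39.5% of all transcripts were positive with a median of -0.15. Other scalings and count models left 33 to 35 negative, and removal of CDX2 KO embryos 2 and 3 left 22 negative with a median of -0.01. With the Y-linked covariate, that is in CDX2 KO embryo 5 alone, 17 were negative.

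SPCS3, a non-catalytic subunit of the complex that cuts off the signal sequence once the chain is in the ER, was 26.8, 13.0 and 18.7 normalized counts in WT control embryos and 47.8, 56.9, 44.1 and 48.4 in GATA3 KO embryos. All KO embryos lay well above all WT control embryos, and SPCS3 rose by a log2 fold change of 1.35 (SE 0.29, limma, adjusted p = 0.0257). The call was lost without WT control embryo 2 or 3 or GATA3 KO embryo 3 or 4, at a log2 fold change of 1.10 to 1.36. With the Y-linked covariate, that is in GATA3 KO embryo 6 alone, the log2 fold change of SPCS3 was 1.33. In CDX2 KO embryos SPCS3 was 6.13, 4.66, 33.2 and 28.5, against 31.7, 11.8 and 17.2 in WT control.

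The other 3 signal peptidase genes tested did not pass in GATA3 KO embryos, and SPCS1 was the lowest of them, with a log2 fold change of -0.22 (SE 0.27, limma, adjusted p = 0.662) that was -0.11 without WT control embryo 1 and -0.38 without embryo 2. SEC11C, a catalytic subunit named here after its values were seen, was 86.9, 64.8 and 50.4 normalized counts in WT control and 4.90, 9.32, 38.1 and 33.3 in CDX2 KO embryos, a log2 fold change of -1.98 (SE 0.62) that did not pass (limma, adjusted p = 0.900). SRPRA, the SRP receptor subunit that meets SRP54 at the ER membrane, was 37.1, 50.8 and 40.4 in WT control and 43.4, 49.5, 39.3 and 32.8 in GATA3 KO embryos. Its groups overlapped (log2 fold change -0.05, SE 0.27, and 0.07 and 0.05 without WT control embryo 2 and GATA3 KO embryo 6), and SRPRB was not listed.

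Among 13 tested partners of the pathway, 6 were positive and 7 negative in GATA3 KO. BTF3, a subunit of the nascent polypeptide-associated complex that competes with SRP for ribosomes, had the highest value, from 133 ± 39.6 (SD, n = 3) to 219.7 ± 30.2 (SD, n = 4) normalized counts, and did not pass (log2 fold change 0.74, SE 0.25, limma, adjusted p = 0.0916). SEC62, which serves SRP-independent entry, had the lowest, -0.41 (SE 0.26, limma, adjusted p = 0.363). With the Y-linked covariate, that is in GATA3 KO embryo 6 alone, SEC62 was at -0.79. The partners of the described subunits in their own complexes are named after their values were seen. SEC61A1, which forms the pore, had a log2 fold change of -0.21 (SE 0.27), and SEC61A2, the other form of that subunit, one of 0.54 (SE 0.41). SEC61A2 was 15.8, 7.56 and 6.22 normalized counts in WT control and 13.0, 15.1, 15.5 and 11.5 in GATA3 KO embryos, and the groups overlapped. The TRAP subunits SSR2 and SSR4 were at -0.11 (SE 0.26) and 0.00 (SE 0.27) on the log2 scale.

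Of the oligosaccharyltransferase, which adds N-glycans to the entering chain, 10 genes were tested, 7 positive and 3 negative in GATA3 KO. OSTC was 37.9, 25.9 and 24.9 normalized counts in WT control and 69.5, 58.2, 56.0 and 38.6 in GATA3 KO embryos (log2 fold change 0.88, SE 0.28, limma, adjusted p = 0.0858). KRTCAP2 was 42.6, 75.6 and 62.2 in WT control and 26.0, 35.8, 40.5 and 39.4 in GATA3 KO embryos (log2 fold change -0.73, SE 0.28, limma, adjusted p = 0.146). Neither overlapped between the groups and neither passed the threshold. Of all 41 pathway genes, 5 lay higher and 2 lower in every GATA3 KO embryo than in any WT control embryo, beside 11.9% and 7.05% of all transcripts. With the Y-linked covariate, that is in GATA3 KO embryo 6 alone, OSTC was at 0.40.

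Routes to the ER membrane that do not need SRP gave mixed values in GATA3 KO. The ER membrane complex, an insertase, had 4 positive and 3 negative genes, from EMC8 at -0.63 (SE 0.38, limma, adjusted p = 0.342) to EMC4 at 0.60 (SE 0.27, limma, adjusted p = 0.194). The GET pathway, which inserts tail-anchored proteins, had 2 positive and 4 negative genes, from GET4 at -0.66 (SE 0.40, limma, adjusted p = 0.338) to the receptor subunit CAMLG at 0.73 (SE 0.32, limma, adjusted p = 0.190). None of these passed the threshold. GET4 was at 0.44 with the Y-linked covariate, that is in GATA3 KO embryo 6 alone. It was at -0.30 without GATA3 KO embryo 3 and at -1.02 without embryo 6. EMC8 was at -0.24 without WT control embryo 3.

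**Figure D5:**
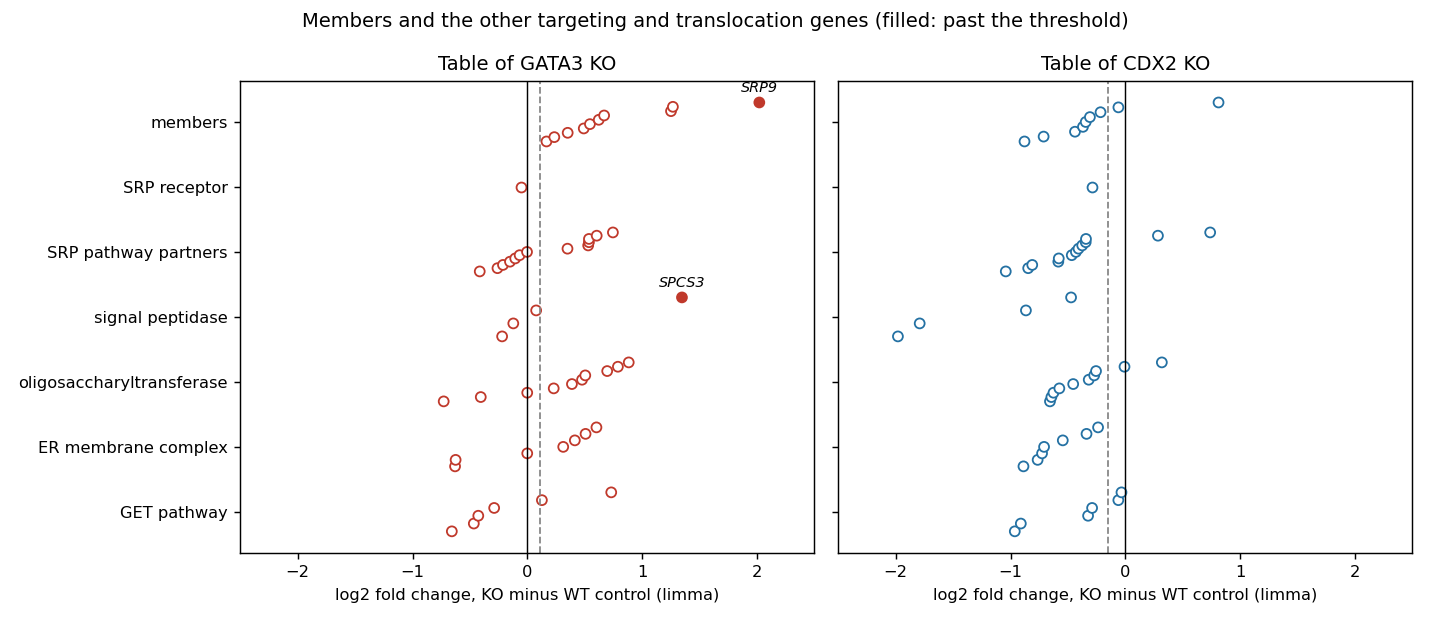
Log2 fold change (horizontal axis) against WT control of the 10 genes (top row, members) and of 41 other targeting and translocation genes, by list, in GATA3 KO (left) and CDX2 KO (right). Each point is a gene, filled where it passed the threshold, and the dashed line is the median of all transcripts tested. SRP9 and SPCS3 are filled in GATA3 KO, and no gene is filled in CDX2 KO.

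The transcripts whose pattern over the 7 embryos of the table of GATA3 KO was most like that of SRP9 were ZFAND6, LRRC57, SCYL2, MTERF4 and CSNK1A1, with Pearson r of 0.987, 0.982, 0.981, 0.981 and 0.972 on log2(normalized count + 1). These are descriptions over embryos of both groups, so that any transcript with a difference between them scores high. ZFAND6 was 8.68, 6.48 and 7.77 normalized counts in WT control and 30.4, 20.2, 21.4 and 33.7 in GATA3 KO embryos, with embryos 3 and 6 the highest as for SRP9. In the table of CDX2 KO, ZFAND6 was 11.4, 5.53 and 6.88 in WT control and 3.68, 18.6, 11.6 and 12.9 in CDX2 KO embryos, where the groups overlapped.

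Within the set, SSR1 was most like SRP9, with r of 0.847, number 183 of 4270 transcripts, followed by SRP14 at 0.842 and SRP54 at 0.789. SSR3 was at 0.718 and SRP19 at 0.612. SRP68, SEC61G, SRP72 and SEC61B had r of 0.492, 0.477, 0.238 and 0.171. These values hold the difference between the groups as well as that within them. The order of the 7 embryos was the same for SRP9 and SRP14. In WT control that of SRP9 rests on 7, 5 and 4 counts, whose counting intervals overlap, so little can be read from it.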

How the data were processed

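Single day 7 blastocysts were measured by RNA-seq (3 WT control, 4 GATA3 KO, 4 CDX2 KO). The authors used Trimmomatic for trimming, Hisat2 for mapping to ARS-UCD1.2, featureCounts for counting and DESeq2 for normalization, in 2 tables. The deposited signal per embryo is a normalized count, the read count divided by a size factor within its table. The 6 columns of the authors' own statistics in each table were not used, and 0 sample columns were left unused. Whole reads came out of 100.0% of values in each column (tolerance 0.1 count). KO columns were matched to groups only. The labels and the methods differ in the number of PCR cycles.

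Accessions were named through the RefSeq table of ARS-UCD2.0 (98.6% in each table), without coordinates or sequences. Groups were compared with limma 3.58.1 (R 4.3.3, trended prior) on log2(normalized count + 1), for means of at least 10, with Benjamini-Hochberg adjustment, and a threshold of adjusted p 0.05 and fold change 1.5 or 0.6. Fold changes on this scale understate those of low transcripts. The labels do not say whether embryos came from separate batches of oocytes, so p-values measure the spread between these embryos. Alternatives were pseudocounts of 0.1 and 5, no filter or a mean of at least 100, quantile normalization, median ratios, count models on the recovered reads (edgeR 4.0.16, DESeq2 1.42.0), a Y-linked covariate (at least 3 counts), each embryo left out, and, added after the data were seen, removal of CDX2 KO embryos 2 and 3. With the covariate the KO effect rests on GATA3 KO embryo 6 or CDX2 KO embryo 5 alone, so only effect sizes are given. The code was tested on simulated data. Tables and figures were made with Python 3.11.15.

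Named genes were the 10 genes of the set, pathway genes past the threshold, the highest and lowest tested gene of each pathway list in GATA3 KO, the 5 transcripts most like SRP9, and GATA3 and CDX2. SEC11C, SEC61A1, SEC61A2, SSR2, SSR4 and the lineage markers given with values or by overlap were named after their values were seen. The set and all lists were chosen with earlier results of these data known.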

Additional observations from a re-analysis of the deposited data

Results flagged for a closer look

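Among 20 groups of 4 embryos examined, one gene in one group, 1 had a sample far from the others by Dixon's test, and chance gives about 1. It was SRP68 in GATA3 KO, where embryo 4, at 26.3 normalized counts, lay apart from embryos 3, 5 and 6, at 33.3, 32.2 and 32.8. Embryo 4 has the largest total of its table, and its value rests on 61 counts. It lay within the WT control range of 15.1 to 34.7.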

How the results depend on the processing

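In GATA3 KO the count of transcripts past the threshold, 86, became 145 with a pseudocount of 5 and 172 without a filter. It was 37 with a mean of at least 100 and 158 with DESeq2. No count is given for the Y-linked covariate, which sets GATA3 KO embryo 6 alone against WT control. Leaving out one embryo gave 1 to 293, with 1 without WT control embryo 2 or GATA3 KO embryo 3, 2 without KO embryo 4, 18 and 39 without WT control embryo 3 and KO embryo 5, and 183 and 293 without KO embryo 6 and WT control embryo 1. Of the 10 genes, 1 passed, 2 (SRP9 and SRP14) with a pseudocount of 5 or without a filter, and 0 with a mean of at least 100. With one embryo left out 0 to 3 passed (SRP9, SRP14 and SRP54 without WT control embryo 1). Of the 41 pathway genes 1 passed, and 0 with a mean of at least 100. With one embryo left out 0 to 4 passed (4 without WT control embryo 1, 2 without KO embryo 6). In CDX2 KO 0 transcripts passed, 1 with a pseudocount of 5, a mean of at least 100, median ratios, edgeR or without embryos 2 and 3, 2 without a filter or with quantile normalization, 10 with DESeq2, and 0 to 1 with one embryo left out. None of the genes of the set or of the pathway lists passed there under any of these settings. The cause of these changes was not tested, except that a stricter filter tests fewer transcripts and a left-out embryo leaves fewer samples. The median of all transcripts in GATA3 KO, 0.11, was 0.00 or 0.01 with quantile normalization, median ratios, edgeR or DESeq2. The split of calls went from 66 higher and 20 lower to 48 and 57 (quantile) and 56 and 53 (median ratios), and to 55 and 71 (edgeR) and 72 and 86 (DESeq2), where the model changed with the scaling. SRP9 had a log2 fold change of 1.55 to 2.20 over these settings, and of 2.40 with the covariate. Of the 86 transcripts past the threshold in GATA3 KO, 0 changed sign under any of the 16 settings that tested them. No paired analysis was possible because the KO columns carry numbers other than those of the sample titles. Genes with few counts, SRP9 and SRP54 in WT control and most of the set in CDX2 KO embryo 3, are limited by depth.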
